A study of Mus musculus with 12 samples.

Results

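Interferon-stimulated genes are genes that cells switch on when an interferon reaches them, and 39 of them, chosen by name, were followed through the kidneys of hypertensive mice. The names cover sensors of foreign nucleic acid, transcription factors of the interferon response, the ISG15 system, IFIT proteins and other antiviral effectors, membrane restriction factors and interferon-induced GTPases. Of the 39 genes, 37 were among the 15361 genes of the whole kidney table, 37 were among the 18145 genes of the F4/80+ table, and 36 were in both. Mx2 was not analysed here in kidney, Ifitm1 was not analysed here in F4/80+ preparations, and Mx1 was not analysed here in either. The genes were taken by symbol, but the list was chosen with earlier results of these data known.

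The mice had been edited with CRISPR-Cas9 to be homozygous for an arginine (Arg/Arg) or a tryptophan (Trp/Trp) allele of a coding polymorphism in Sh2b3, the gene of the adaptor LNK, which restrains cytokine signalling in blood cells. All of them had received angiotensin II, a vasoconstrictor peptide used to make mice hypertensive, for 4 weeks, so no group without it was available for comparison. Polyadenylated RNA was sequenced from Arg/Arg whole kidney, Trp/Trp whole kidney, Arg/Arg F4/80+ preparations and Trp/Trp F4/80+ preparations, with 3 biological replicates in each group. The F4/80+ preparations came from other kidneys, by a Percoll gradient and magnetic beads against F4/80, a surface protein of mouse macrophages. The edit changes a codon, so the level of Sh2b3 does not check the genotype labels.

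Type I interferons bind the receptor of IFNAR1 and IFNAR2, and type III interferons bind their own receptor on epithelial cells. Both lead through the kinases JAK1 and TYK2 to a transcription factor complex that holds STAT2 and IRF9 and binds the interferon-stimulated response element. Type II interferon acts at the gamma-activated site, and IRF1 is a classic target of that route. In the kidney, tubular epithelium, endothelium and macrophages can all express these genes, so a bulk level is a sum over cell types. In such samples fewer cells of a type and less RNA per cell cannot be told apart.

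Each level below is a CPM, a count divided by the library's sum over nuclear protein-coding genes and scaled up, of which each kidney library held 17.8 to 50 M counts (M for mega) and each F4/80+ library 6.88 to 11.1 M. A single count was worth 0.02 to 0.0562 CPM in kidney libraries and 0.0897 to 0.145 CPM in F4/80+ libraries. Mitochondrial transcripts took 70.1 to 83.6% of the counts in the F4/80+ libraries. The common biological coefficient of variation was 0.101 in kidney and 0.28 in F4/80+ preparations, so the preparations gave the less precise comparison. The F4/80+ label was checked against its markers. Adgre1, the gene of F4/80 itself, stood at 10.8, 1.26 and 2.06 CPM in Arg/Arg preparations, at 2.15, 11.5 and 16.7 CPM in Trp/Trp preparations and at 4.12 to 8.32 CPM in whole kidney. The summed level of the macrophage markers was 126 to 299 CPM in the preparations (14 of 16 markers in the table) and 229 to 358 CPM in whole kidney (15 of 16), while proximal tubule markers summed to 14933 to 46788 CPM in the preparations. The preparations are therefore called by their isolation and not as macrophages.

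Per kilobase of exon, the membrane restriction factors Ifitm3 and Ifitm2 stood highest in both sample types. IFITM proteins sit in membranes and hinder the fusion of entering viruses. In kidney, Ifitm3 averaged 57.2 ± 7.53 CPM per kilobase, Ifitm2 26.3 ± 2.77 and Ifi27, which encodes a small hydrophobic interferon-induced protein, 26.2 ± 2.34 (SD, n = 6 libraries of both genotypes). Ifitm3 lay above the other pair, and the levels of Ifitm2 and Ifi27 did not differ beyond their spread. In F4/80+ preparations Ifitm3 averaged 73.1 ± 32.5, Ifitm2 50.6 ± 16.9 and Irf1 32.5 ± 10.1 CPM per kilobase (SD, n = 6), and the ranges of neighbours in this order overlapped. Zbp1, a sensor of Z-form nucleic acid, was lowest in both, at 0.57 CPM per kilobase in kidney and 0.199 in the preparations. The median coefficient of variation of a member across 6 libraries was 10.8% in kidney and 38.6% in F4/80+ preparations. Irgm1, an immunity-related GTPase, was the steadiest in the preparations at 7.44%, and Trim25, a ubiquitin ligase that acts on the sensor RIG-I, was the steadiest in kidney at 3.05%.

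**Figure D1:**
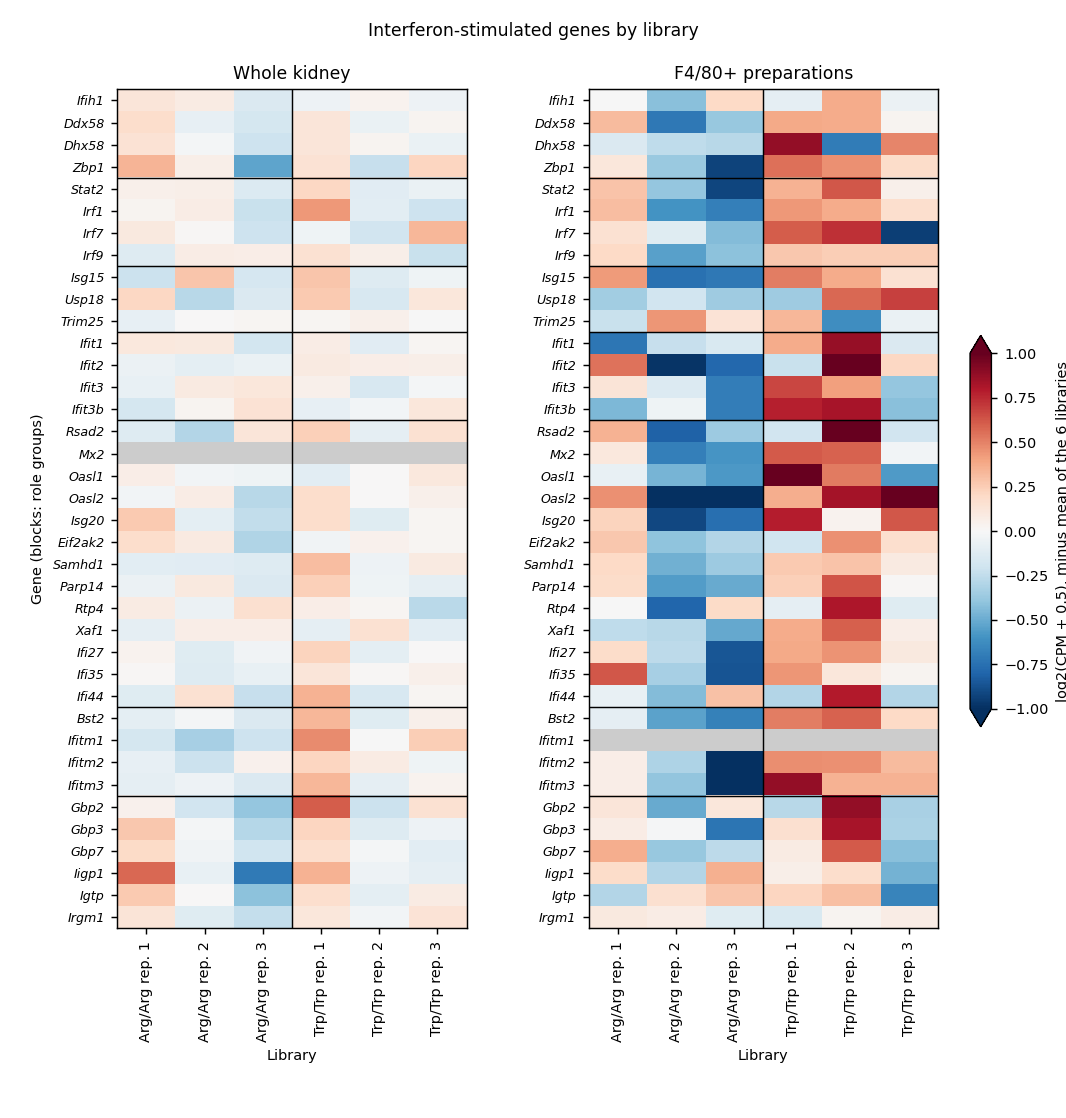
Level of each gene in each library as log2(CPM + 0.5) minus its mean over the 6 libraries of that sample type, with kidney on the left, F4/80+ preparations on the right, rows in blocks by role and grey for genes not analysed in that sample type. Kidney libraries stay close to their means, with Trp/Trp replicate 1 the highest library for 18 of 37 genes, and in the preparations Arg/Arg replicates 2 and 3 are mostly low and Trp/Trp replicate 2 is the highest for 19 of 33 genes tested.

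The first comparison asked how these genes stood in F4/80+ preparations against whole kidney. The genes were split: the IFIT genes Ifit2, Ifit3 and Ifit3b, Irf7 and most antiviral effectors were lower in the preparations, while Irf1, Eif2ak2, Ifitm2 and Ifih1 were higher. Of the 36 genes tested, 6 passed the edgeR test higher in the preparations and 21 lower, at an adjusted p under 0.05. Over all 13578 genes tested, 32.3% passed higher and 32% lower (64.3% in either direction), so a call as such is common in this comparison. The median log2 fold change was -0.55 over the interferon-stimulated genes and -0.01 over all genes. Libraries of the 2 sample types did not overlap for 3 genes higher and 15 genes lower in the preparations, where 15.1% and 27.1% of all genes did so. The log2 fold change was above 0 for 10 of the 36 genes and for 49.7% of all genes. At an unadjusted p under 0.05 the counts were 7 higher and 21 lower, beside 34% and 33.8% of all genes (67.8% in either direction), and DESeq2 called 28 of the 36 and 67.3% of all genes. Sample type, isolation procedure and table cannot be told apart in these differences.

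Among the transcription factors, Irf1, an activator of interferon and antiviral genes, stood at 17.7, 18.3 and 14.8 CPM in Arg/Arg kidneys and at 23.5, 16.1 and 14.9 CPM in Trp/Trp kidneys. In the preparations it stood at 153, 81.5 and 76.8 CPM in Arg/Arg and at 167, 159.5 and 138 CPM in Trp/Trp mice. Every preparation lay far above every kidney. The difference was 2.96 ± 0.16 on the log2 scale (SE), a 7.79-fold higher level (edgeR adjusted p = 6.05e-09). Irf7, the factor that amplifies type I interferon production, went the other way, with 11.8 to 17.4 CPM in kidneys and 1.58 to 6.11 CPM in preparations. Its groups did not overlap, and it was lower by -1.76 ± 0.24 in log2 (edgeR adjusted p = 2.62e-05). Stat2 (-0.06 ± 0.15) and Irf9 (0.22 ± 0.11), members of the factor complex of type I signalling, did not pass.

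The IFIT proteins act in complexes that hold back the translation of foreign RNA. The 4 IFIT genes among the members lie together on chromosome 19, between 34550694 and 34650009 in the mm10 build. Ifit2 stood at 21.0, 20.4 and 20.9 CPM in Arg/Arg kidneys and at 23.3, 23.0 and 22.9 CPM in Trp/Trp kidneys. In the preparations it stood at 4.94, 1.39 and 1.66 CPM in Arg/Arg and at 2.69, 8.34 and 3.81 CPM in Trp/Trp mice. All kidneys were higher than all preparations. The log2 difference was -2.52 ± 0.26, a 5.74-fold lower level (edgeR adjusted p = 1.9e-06). Ifit3 was at 21.3 to 25.8 CPM in kidneys and 2.25 to 6.55 CPM in preparations, with a log2 difference of -2.42 ± 0.18, and its near copy Ifit3b was at 7.11 to 9 and 0.783 to 3.17 CPM, with -2.18 ± 0.24 (edgeR adjusted p = 1.03e-07 and 4.3e-06). Ifit1 differed from its neighbours, with 5.15 to 6.41 CPM in kidneys, 2.47 to 8.46 CPM in preparations and a log2 difference of -0.26 ± 0.20 that did not pass (edgeR adjusted p = 0.276). Ifit3 and Ifit3b share sequence, as 51.2% of the 50-base words in Ifit3 exons also occur in Ifit3b, so their separate values are uncertain.

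The stretches before the starts of these genes are shown because the letters of the interferon response elements can be read in them, in genes lower in the preparations (Ifit3, Ifit3b, Isg15 and Bst2), in Irf1, which was higher, and in Ifit1, which did not pass. They come from the RefSeq promoter table (GRCm38.p6, the mm10 assembly), which matched 30 of the 39 genes, and run 5′ to 3′ on the strand of the gene. Capitals mark the response element, searched as GAAA, any 2 bases and GAAA, which reads as TTTC, any 2 bases and TTTC on the other strand, and in Irf1 the gamma-activated site, written TTCNNNGAA. The coordinates are chr19:34583338-34583417 (+) for Ifit3, chr19:34607734-34607813 (+) for Ifit3b, chr19:34640750-34640829 (+) for Ifit1, chr4:156200852-156200931 (-) for Isg15, chr8:71537558-71537637 (-) for Bst2 and chr11:53769889-53769967 (+) for Irf1.
Ifit3: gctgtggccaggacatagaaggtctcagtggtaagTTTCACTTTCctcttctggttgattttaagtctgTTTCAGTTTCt
Ifit3b: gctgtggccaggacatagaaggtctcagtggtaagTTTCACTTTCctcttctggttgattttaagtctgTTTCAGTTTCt
Ifit1: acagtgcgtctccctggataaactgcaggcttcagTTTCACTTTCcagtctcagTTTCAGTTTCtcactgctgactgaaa
Isg15: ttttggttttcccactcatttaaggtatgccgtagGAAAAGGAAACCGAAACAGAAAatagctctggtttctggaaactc
Bst2: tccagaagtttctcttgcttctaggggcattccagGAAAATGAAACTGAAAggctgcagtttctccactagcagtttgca
Irf1: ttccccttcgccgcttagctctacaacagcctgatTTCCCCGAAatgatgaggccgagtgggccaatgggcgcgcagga
The Ifit3 and Ifit3b stretches were the same at 80 of 80 positions. Ifit3, Ifit3b and Ifit1 each hold 2 response elements, and the capitals in Bst2 and Isg15 are overlapping matches.

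In the 250 bases before the start, 13 of the 30 matched members held the response element on either strand, against 3.46% of all 27025 genes in the table. They were Bst2, Gbp2, Gbp3, Gbp7, Ifit1, Ifit3, Ifit3b, Ifitm2, Igtp, Irgm1, Isg15, Rsad2 and Stat2. TTCNNNGAA occurred in 8 of the 30 (Bst2, Eif2ak2, Gbp7, Ifit2, Igtp, Irf1, Isg20 and Samhd1), against 8.13% of all genes. Bst2, Gbp7 and Igtp held both, and 12 held neither. Of the members lower in the preparations, 16 had a window and 8 of these held the response element, while 2 of the 6 higher members did. For TTCNNNGAA the numbers were 4 of 16 and 3 of 6. These are matches of letters and were not tested for binding.

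Sensors and effectors were also split. Ifih1, the gene of the long double-stranded RNA sensor MDA5, stood at 14.3 to 17.2 CPM in kidneys and 20.1 to 35.1 CPM in preparations, without overlap (log2 difference 0.92 ± 0.13, edgeR adjusted p = 2.61e-05). Ddx58, the gene of the sensor RIG-I, was 0.32 ± 0.13 higher and only just passed (edgeR adjusted p = 0.046). Dhx58, the gene of LGP2, which regulates both sensors, was lower by -1.42 ± 0.34, and Zbp1 by -1.58 ± 0.35. Counts were low for both in the preparations, at 2 to 19 for Dhx58 and 1 to 13 for Zbp1. Eif2ak2, the gene of the kinase PKR, which stops translation on sensing double-stranded RNA, stood at 18.8 to 26.3 CPM in kidneys and 37.7 to 68.6 CPM in preparations. No library overlapped, and the log2 difference was 1.23 ± 0.13 (edgeR adjusted p = 1.93e-06).

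Of the 12 other antiviral effectors tested, Eif2ak2 was the only one that passed higher, and 10 passed lower, beside 32.3% and 32% of all genes. Rsad2, the gene of viperin, which makes a chain-terminating nucleotide, stood at 32.4 to 47.1 CPM in kidneys and 6.82 to 29.2 CPM in preparations (log2 difference -1.47 ± 0.23). Samhd1, which depletes nucleotides needed for reverse transcription, stood at 36.8 to 49.9 and 15.8 to 27.3 CPM (-0.73 ± 0.10). Neither gene's sample types overlapped. Ifi44 (-1.25), Rtp4 (-0.997), the chaperone of chemosensory receptors, Xaf1 (-0.97), a binding partner of the inhibitor of apoptosis XIAP, Oasl2 (-0.93), an oligoadenylate synthetase-like protein, the exonuclease gene Isg20 (-0.88), Ifi35 (-0.72), the ADP-ribosyltransferase gene Parp14 (-0.38) and Ifi27 (-0.32) were lower in log2 by the values given. The call of Ifi27 was lost with each of 7 libraries left out in turn (edgeR adjusted p of 0.0563 to 0.102), and Oasl1 (-0.16 ± 0.31) did not pass. Ifi35 overlaps an antisense gene, and the counting of strand is not given in the sources used here.

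Among membrane factors, Ifitm2 stood at 14.7 to 20.0 CPM in kidneys and at 32.7, 25.1, 15.5, 43.4, 43.1 and 39 CPM in the preparations, where Arg/Arg replicate 3 alone lay within the kidney range. Its log2 difference was 1.01 ± 0.13, a 2.01-fold higher level (edgeR adjusted p = 1.78e-05). Of the 50-base words in its exons 48.5% also occur in other genes, so its level is uncertain. Ifitm3 was 0.39 ± 0.17 higher and missed the threshold (edgeR adjusted p = 0.0552), which it passed without Arg/Arg preparation 3 (0.53, adjusted p = 0.0043). Bst2, the gene of tetherin, which holds budding virus on the cell surface, was at 13.3 to 18.8 CPM in kidneys and 4.21 to 10.8 CPM in preparations, and was lower by -0.96 ± 0.13 (edgeR adjusted p = 2.38e-05).

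In the ISG15 system, Isg15, a ubiquitin-like modifier, was lower by -1.17 ± 0.25 (3.38 to 4.94 CPM in kidneys, 0.758 to 2.51 CPM in preparations), while its protease gene Usp18 (0.43 ± 0.22) and Trim25 (0.08 ± 0.17) did not pass. Of the GTPases, which act on the membranes around intracellular pathogens, Igtp was higher by 0.59 ± 0.19 and Gbp3 (-1.35 ± 0.21), Gbp2 (-0.89 ± 0.22) and Irgm1 (-0.31 ± 0.09) were lower. Gbp7 (0.00 ± 0.16) and Iigp1 (-0.16 ± 0.21) did not pass.

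**Figure D2:**
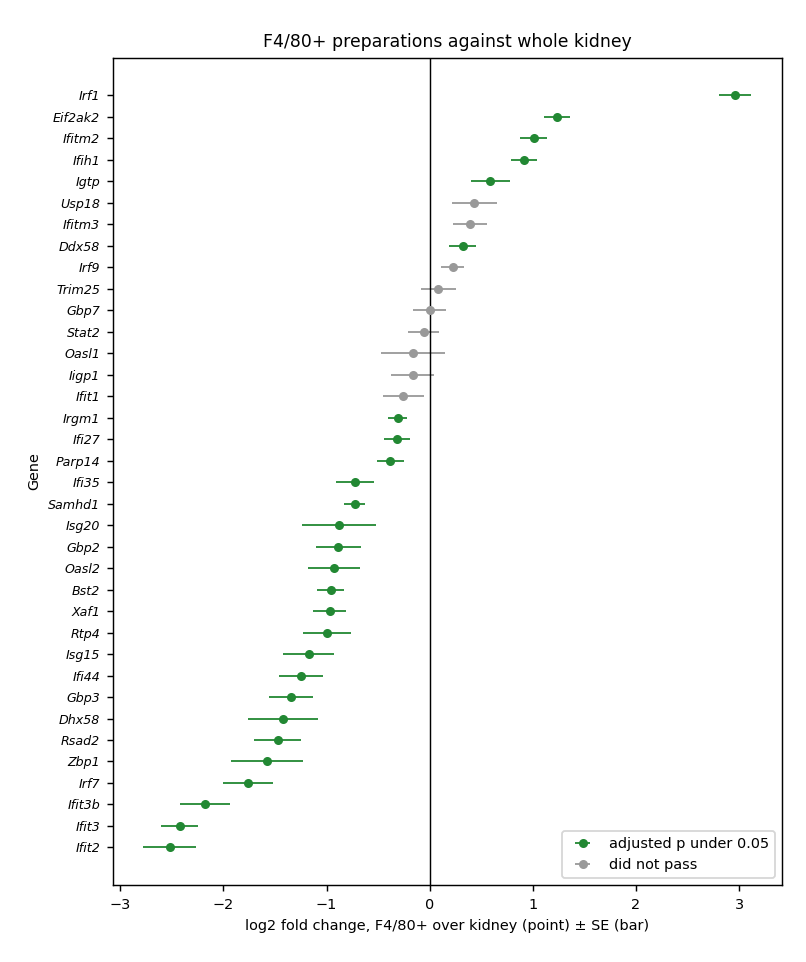
Log2 fold change of F4/80+ preparations over whole kidney for the 36 genes tested, as point ± SE from edgeR over 12 libraries, with genes past an adjusted p of 0.05 in green. Irf1 stands apart at 2.96 and Ifit2, Ifit3 and Ifit3b lie between -2.52 and -2.18.

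The second comparison asked whether the allele of Sh2b3 went with another level of these genes in whole kidney. Levels were close between genotypes, and the largest log2 fold changes, both above 0, were those of the membrane factor Ifitm1 (0.51) and the GTPase Gbp2 (0.38). None of the 37 genes tested passed (smallest edgeR adjusted p = 0.843), and 0% of the 14464 genes tested passed. At an unadjusted p under 0.05 there were 2 genes higher in Trp/Trp (Ifitm1 and Samhd1) and 0 lower, beside 3.68% and 2.03% of all genes (5.71% in either direction). The log2 fold change of Trp/Trp over Arg/Arg was above 0 for 27 of the 37 genes and for 50.6% of all genes, and the median was 0.04 beside 0.00 over all genes. Libraries did not overlap for 3 genes higher in Trp/Trp (Ifitm1, Samhd1 and Ifit2) and 0 lower, beside 6.59% and 3.67% of all genes. DESeq2 called 0 of the 37 genes and 0.104% of all genes, and the authors' deposited table also held 0 calls among the 37 and 0.103% among all its genes with an adjusted p. The edgeR p-values set the difference between groups against the spread between biological replicates, which is pooled over the groups and moderated across genes.

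Ifitm1, a membrane factor related to Ifitm3, stood at 5.87, 5.22 and 5.75 CPM in Arg/Arg kidneys and at 9.51, 6.70 and 8.04 CPM in Trp/Trp kidneys. Each Trp/Trp kidney lay above each Arg/Arg kidney. The log2 fold change was 0.51 ± 0.15 (edgeR unadjusted p = 0.0071, adjusted p = 0.843), and 0.38 without Trp/Trp replicate 1. Samhd1 stood at 37.5, 37.2 and 36.8 CPM in Arg/Arg and 49.9, 38.9 and 42.8 CPM in Trp/Trp kidneys, again without overlap but with most of the distance in Trp/Trp replicate 1. Its log2 fold change was 0.22 ± 0.08 (edgeR adjusted p = 0.843), and 0.13 without that library. Ifit2, whose values are given above, did not overlap either, with a small log2 fold change of 0.13 ± 0.06 that was 0.14 without Trp/Trp replicate 1. The other IFIT genes had log2 fold changes of -0.11 (Ifit3), -0.05 (Ifit1) and -0.02 (Ifit3b).

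Ifitm3 stood at 36.1, 37.2 and 34.9 CPM in Arg/Arg and 48.7, 36.2 and 39.5 CPM in Trp/Trp kidneys. Gbp2, a guanylate-binding protein gene, stood at 15.4, 13 and 11.3 CPM in Arg/Arg and 23.0, 12.8 and 16.7 CPM in Trp/Trp kidneys. Both overlapped between genotypes and were highest in Trp/Trp replicate 1. Their log2 fold changes of 0.18 ± 0.09 and 0.38 ± 0.19 became 0.06 and 0.14 without that library. Bst2 stood at 13.9, 14.6 and 13.3 CPM in Arg/Arg and 18.8, 13.6 and 15.4 CPM in Trp/Trp kidneys, with 0.17 ± 0.11, which became 0.05 without the same library. Ifitm2 (16.2, 14.7 and 17.7 against 20.0, 18.1 and 16.6 CPM) overlapped as well, with a log2 fold change of 0.16 ± 0.09. Rsad2 stood at 36.3, 32.4 and 43.4 CPM in Arg/Arg and 47.1, 37.3 and 44.4 CPM in Trp/Trp kidneys, with 0.18 ± 0.11. The other members lay between -0.14 (Rtp4) and 0.14 (Usp18) on the log2 scale.

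Libraries of the same genotype stood apart from each other in kidney. Trp/Trp replicate 1 held the highest level of 18 of the 37 genes and of 35% of all genes tested, and Arg/Arg replicate 3 held the lowest level of 22 of the 37 and of 16.2% of all genes. The median deviation of the members from their kidney means was 0.17 in the former and -0.15 in the latter on the log2(CPM + 0.5) scale, and -0.05 to 0.03 in the other libraries. Without Trp/Trp replicate 1 the median log2 fold change was 0.01 with 20 genes above 0, and without Arg/Arg replicate 3 it was -0.01 with 18 above 0. Several marker lists were also highest in Trp/Trp replicate 1. Macrophage markers summed to 229 to 251 CPM in Arg/Arg and 266 to 358 CPM in Trp/Trp kidneys, and T and NK cell markers (10 of 12 in the table) to 5.52 to 8.26 and 10.5 to 18.2 CPM, with that library the highest in both. It stood further apart for B and plasma cell markers (6 of 8 in the table), at 90.03 CPM against 4.32 to 5.66 CPM in the other kidneys, for perirenal fat markers (7 of 7), at 282 against 87.0 to 110.2 CPM, and for fibroblast, pericyte and smooth muscle markers (9 of 9), at 731 against 342 to 371 CPM. Plasmacytoid dendritic cell markers (4 of 5) were at 2.72 CPM there and at 1.24 to 3.57 CPM in the other kidneys. No marker found in the table was at 0 in all kidneys. The part of these cells in the levels of the interferon-stimulated genes was not tested.

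**Figure D3:**
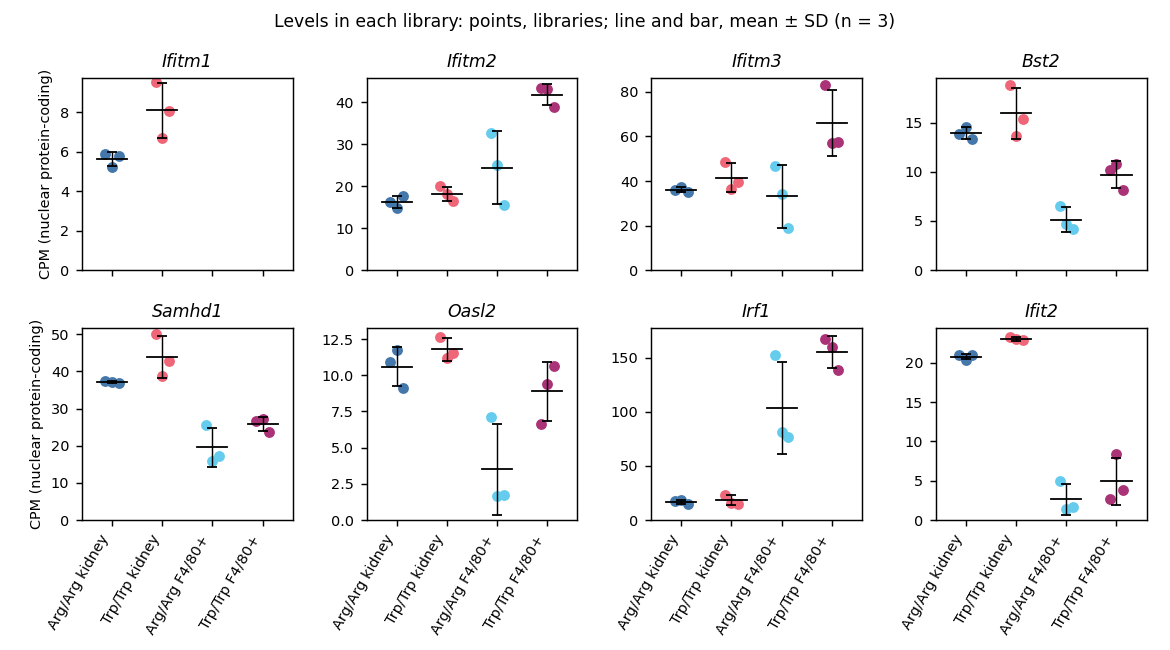
CPM over nuclear protein-coding genes of 8 genes in every library (points), with the mean and SD of the 3 replicates of each group, and each vertical axis starting at 0. Trp/Trp kidneys lie above Arg/Arg kidneys for Ifitm1, Samhd1 and Ifit2, Trp/Trp preparations lie above Arg/Arg preparations for Ifitm2, Ifitm3 and Bst2, and Irf1 and Ifit2 separate the sample types in opposite directions.

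The same question in F4/80+ preparations gave larger differences and wider spread. Most members had higher means in Trp/Trp preparations, and the smallest p-values belonged to the membrane factors Ifitm3, Bst2 and Ifitm2 and the effector Oasl2. By size the largest log2 fold changes were those of Oasl2 (1.30) and Ifit3b (1.00). None of the 33 genes tested passed (smallest edgeR adjusted p = 0.605), and 0% of the 15225 genes tested passed. At an unadjusted p under 0.05 there were 4 genes higher in Trp/Trp and 0 lower, beside 4.43% and 3.61% of all genes (8.04% in either direction). The log2 fold change was above 0 for 28 of 33 genes and for 51.1% of all genes, with a median of 0.46 beside 0.01 over all genes. Libraries did not overlap for 6 genes higher in Trp/Trp (Ifitm3, Bst2, Ifitm2, Xaf1, Ifit1 and Irf9) and 0 lower, beside 7.19% and 3.33% of all genes. For Ifit1 the nearest libraries stood at 3.91 CPM (Arg/Arg replicate 3) and 3.94 CPM (Trp/Trp replicate 3), closer than a single count is worth. DESeq2 gave an adjusted p to 7 of the 33 members and left it missing for 26, so that its count of 0 calls covers those 7, beside 0.181% of all genes with a value. The authors' deposited table likewise held an adjusted p for 6 members, with 0 calls among them and 0.368% among all its genes with a value. Dhx58, Isg20, Oasl1 and Zbp1 were left out by the filter on low counts, with at most 42 counts in any preparation.

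Ifitm3 stood at 47.0, 34.0 and 18.8 CPM in Arg/Arg and 83.0, 57.2 and 57.4 CPM in Trp/Trp preparations. Bst2 stood at 6.54, 4.68 and 4.21 CPM in Arg/Arg and 10.2, 10.8 and 8.14 CPM in Trp/Trp preparations. Ifitm2 stood at 32.7, 25.1 and 15.5 CPM in Arg/Arg and 43.4, 43.1 and 39 CPM in Trp/Trp preparations. In all 3 genes the lowest Trp/Trp library lay above the highest Arg/Arg library, and Arg/Arg replicate 3 was the lowest of all. The log2 fold changes were 0.90 ± 0.30 for Ifitm3, 0.81 ± 0.30 for Bst2 and 0.67 ± 0.25 for Ifitm2, each with an edgeR adjusted p of 0.605. Without Arg/Arg replicate 3 the value of Ifitm2 was 0.46, and without Trp/Trp replicate 1 that of Ifitm3 was 0.63.

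Oasl2 stood at 7.12, 1.64 and 1.76 CPM in Arg/Arg and 6.64, 9.40 and 10.6 CPM in Trp/Trp preparations. Arg/Arg replicate 1 was within the Trp/Trp range, and the other Arg/Arg libraries, with 13 and 18 counts, were far below it. The log2 fold change was 1.30 ± 0.48 (edgeR adjusted p = 0.605), and 2.13 without Arg/Arg replicate 1 (adjusted p = 0.0825). Mx2 belongs to a family of interferon-induced dynamin-like GTPases, and the mm10 annotation classes it as a polymorphic pseudogene. Its level was 3.63, 1.90 and 2.05 CPM in Arg/Arg and 5.38, 5.29 and 3.28 CPM in Trp/Trp preparations, with a log2 fold change of 0.79 ± 0.41. Irf1, Stat2 and Ifi27 showed the same layout, in which Arg/Arg replicate 1 reached the Trp/Trp range and replicates 2 and 3 lay below it. Stat2 stood at 25.4, 15.8 and 10.8 CPM in Arg/Arg and 26.6, 32.2 and 21.5 CPM in Trp/Trp preparations (0.53 ± 0.28). Ifi27 stood at 31.5, 23.1 and 15.2 CPM in Arg/Arg and 36.3, 38.2 and 29.8 CPM in Trp/Trp preparations (0.47 ± 0.25), and Irf1, with the values given above, had a log2 fold change of 0.49 ± 0.24. None of these passed.

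By role, the 4 IFIT genes had log2 fold changes of 0.46 (Ifit3), 0.68 (Ifit1), 0.80 (Ifit2) and 1.00 (Ifit3b), with SEs of 0.40 to 0.57. The 4 transcription factors lay between 0.36 (Irf7) and 0.53 (Stat2), and the 11 other effectors tested lay between 0.05 (Ifi44) and 1.30 (Oasl2). The GTPases had 3 values above and 3 below 0, from -0.30 (Iigp1) to 0.41 (Gbp3), with a median of -0.04. Isg15 (0.72 ± 0.53) and Usp18 (0.58 ± 0.39) were above 0, and Trim25 (-0.35 ± 0.32) had the lowest value of all members. Of the sensors tested, Ddx58 was at 0.38 ± 0.25 and Ifih1 at 0.00 ± 0.24. None of these passed, and the difference between role groups was not tested.

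**Figure D4:**
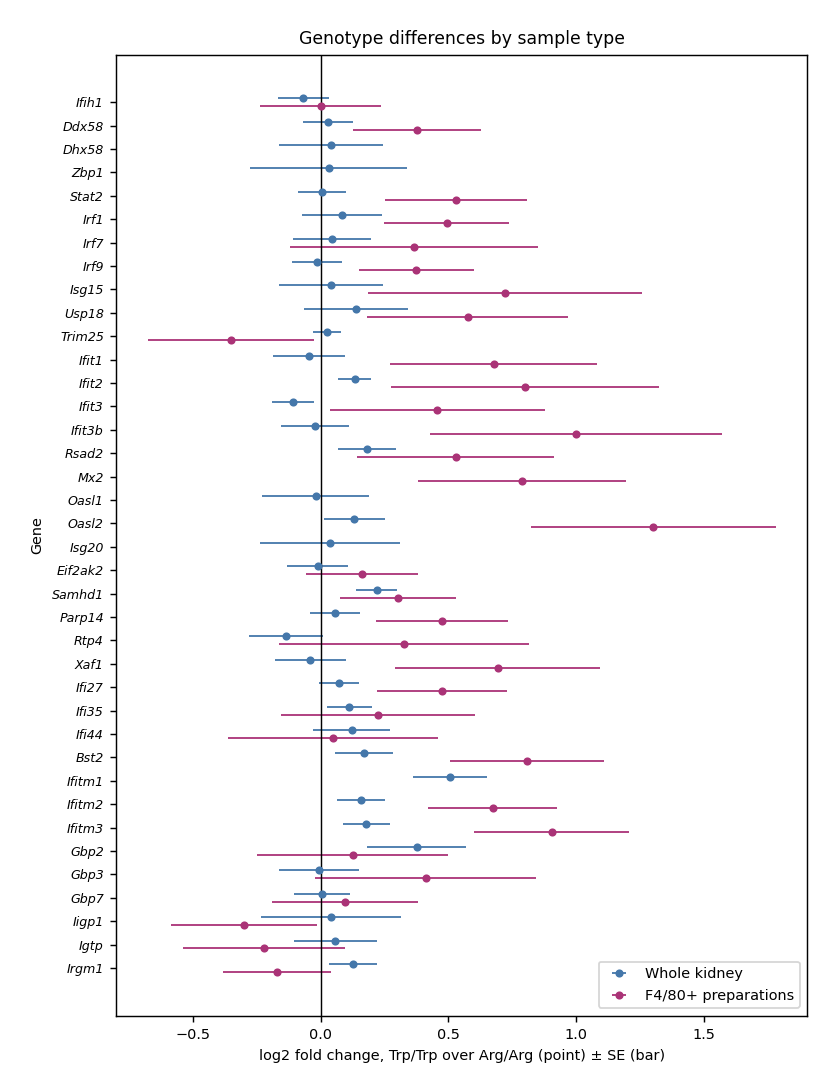
Log2 fold change of Trp/Trp over Arg/Arg for each gene, as point ± SE from edgeR, in whole kidney (blue) and in F4/80+ preparations (purple), with genes in order of role. Kidney points lie between -0.14 and 0.51, and points of the preparations lie between -0.35 and 1.30 with wider bars.

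In the preparations the order of the libraries was shared by many members. Arg/Arg replicates 2 and 3 were the 2 lowest libraries for 18 of the 33 genes, and Arg/Arg replicate 1 reached or passed the lowest Trp/Trp library for 26. The counts of 18 and 26 were not made over all genes. Arg/Arg replicate 2 was the lowest library for 14 of the 33 genes and Arg/Arg replicate 3 for 11, beside 27% and 28.6% of all genes. Trp/Trp replicate 2 was the highest library for 19 of 33 genes and for 30.8% of all genes. The median deviation of the members was 0.13, -0.40 and -0.43 in Arg/Arg replicates 1, 2 and 3 and 0.33, 0.58 and 0.03 in the Trp/Trp replicates, on the log2(CPM + 0.5) scale. Over all genes it was 0.12, -0.17 and -0.15 in the Arg/Arg and 0.03, 0.17 and 0.05 in the Trp/Trp replicates. Over all genes, too, Arg/Arg replicates 2 and 3 were lowest and Trp/Trp replicate 2 was highest. Cell type markers also differed between the libraries, and the lists differed in how closely their order matched that of the members' medians. Endothelial markers (9 of 9 in the table) summed to 300, 234 and 231 CPM in Arg/Arg and 388, 286 and 192 CPM in Trp/Trp replicates 1, 2 and 3. Macrophage markers summed to 247, 137 and 126 CPM in Arg/Arg and 203, 277 and 299 CPM in Trp/Trp replicates 1, 2 and 3. Proximal tubule markers (12 of 12 in the table) summed to 22845, 46788 and 42235 CPM in Arg/Arg and 26877, 14933 and 24380 CPM in Trp/Trp replicates.

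Distal nephron and collecting duct markers (12 of 12) summed to 14185, 6034 and 5596 CPM in Arg/Arg and 13528, 20413 and 11689 CPM in Trp/Trp replicates. The genotypes overlapped, and the low values were those of Arg/Arg replicates 2 and 3. From high to low, the libraries stood in the order of the members' medians, except that Arg/Arg replicate 1 and Trp/Trp replicate 1 changed places. Markers of plasmacytoid dendritic cells, the chief blood source of type I interferon (2 of 5 in the table), summed to 1.64 to 2.45 CPM in Arg/Arg and 2.49 to 5.40 CPM in Trp/Trp preparations. These ranges nearly touched, and the sums rest on few counts, as a single count was worth 0.0897 to 0.145 CPM. No marker found in the table was at 0 in all preparations. The part of cell makeup in the genotype values of the interferon-stimulated genes was not tested. Leaving out Arg/Arg replicate 1 put 9 members under an unadjusted p of 0.05, all higher in Trp/Trp, with a median of 0.57, and leaving out Arg/Arg replicate 3 put 0 there, with a median of 0.34. The count over all genes at that p moved from 1224 to 2788 and 364 in the same 2 settings. No member passed with any library left out, and without Trp/Trp replicate 2 the number of genes above 0 was 23.

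**Figure D5:**
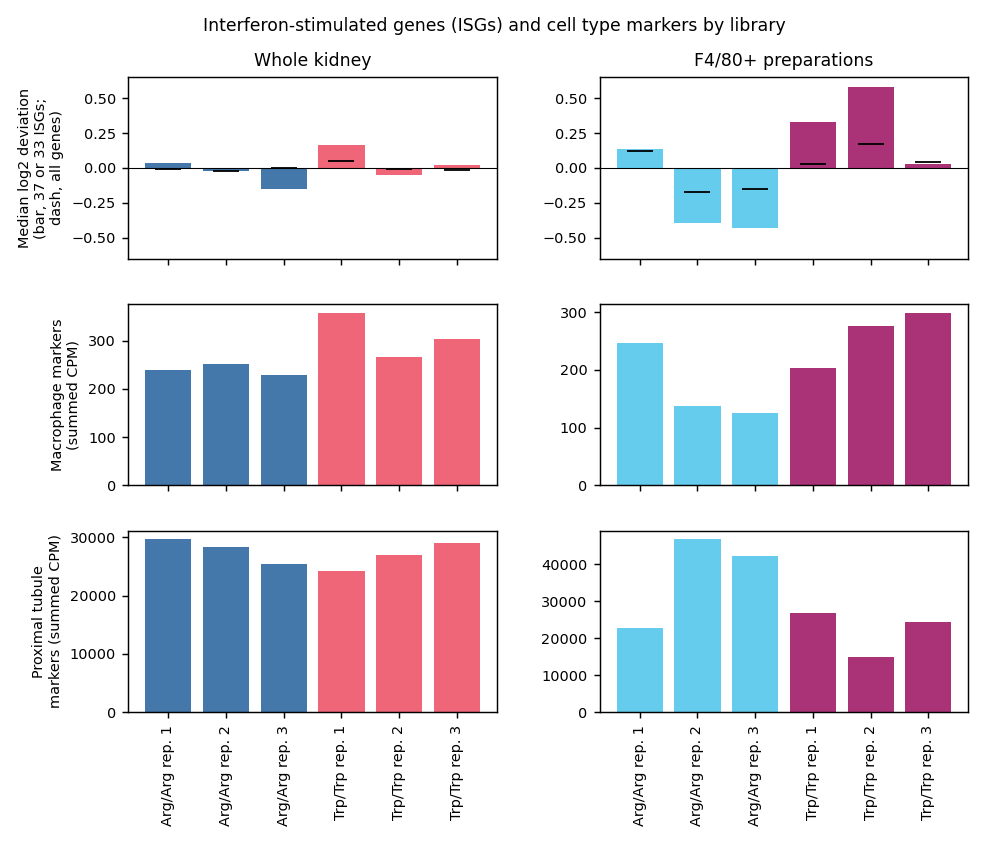
Top, median log2 deviation of the interferon-stimulated genes (bars, 37 in kidney and 33 in preparations) and of all genes (dashes) in each library from the mean of its sample type. Middle and bottom, summed CPM of macrophage and proximal tubule markers, in which Arg/Arg preparations 2 and 3 have the lowest macrophage sums (137 and 126) and the highest proximal tubule sums (46788 and 42235).

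The last comparison asked whether the genotype difference itself differed between the sample types. The interaction was above 0, meaning more positive in the preparations, for 30 of 36 genes and for 50.9% of all genes, with a median of 0.41 beside 0.01 over all genes. Isg20 (1.52), Zbp1 (1.27), Oasl1 (1.13) and Dhx58 (0.85), left out of the preparations' own fit for low counts, were among the 30. They entered this fit through their kidney counts, so the number and the median rest in part on few counts in the preparations. No member passed (smallest edgeR adjusted p = 0.706), and 0% of the 13578 genes tested did. DESeq2 called 0 of the members and 0.0516% of all genes. At an unadjusted p under 0.05 there were 3 members, Bst2 (0.62 ± 0.26), Oasl2 (1.14 ± 0.50) and Xaf1 (0.73 ± 0.33), all more positive in the preparations, beside 3.22% of all genes in that direction, 3.56% in the other and 6.78% in either. Without Arg/Arg preparation 1, 580 genes passed, and Oasl2 was the only member among them (2.00, edgeR adjusted p = 0.021). The fit shares its spread between sample types, whereas the preparations varied more than the kidneys.

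Other genes of the pathway, from lists chosen by name, were described in the same fits. Of 12 interferon genes, Ifnk in the F4/80+ table was the only one analysed here, at 0.632 to 2.11 CPM in the preparations. Of 9 receptor and JAK kinase genes, 0 passed for genotype, and Ifnar2, a subunit of the type I receptor, had the largest value in kidney, a log2 fold change of 0.28 ± 0.09 (edgeR adjusted p = 0.843). Ifnar2 and Il10rb were under an unadjusted p of 0.05 in kidney, both higher in Trp/Trp, beside 3.68% of all genes. Of 14 genes of sensing and interferon induction tested in kidney 12 were above 0, with a median of 0.21. Irf8 (0.52), Tlr7 (0.63) and Tmem173 (0.63), the gene of STING, were under an unadjusted p of 0.05, beside 3.68% of all genes higher in Trp/Trp. How far the kidney values of these receptor and sensing genes depend on Trp/Trp replicate 1 was not examined. Of 12 such genes tested in the preparations 9 were above 0, with a median of 0.22, and 0 were under that p. Of 47 other interferon targets tested in kidney 36 were above 0 with a median log2 fold change of 0.12, and of 39 tested in preparations 30 were above 0 with a median of 0.45. None of them passed for genotype. Of all genes, 50.6% in kidney and 51.1% in preparations were above 0. At an unadjusted p under 0.05 kidney had 4 of these targets higher in Trp/Trp (Ifi205, Ly6e, Ciita and Ifi209) and 0 lower, beside 3.68% and 2.03% of all genes. For these targets, too, the dependence on Trp/Trp kidney replicate 1 was not examined. The preparations had 7 higher, Trim30a, Ifi203, Ifi204, Psmb8, Oas1b, Ifi27l2a and Nlrc5, and Gbp6 lower (-1.35 ± 0.44), beside 4.43% and 3.61% of all genes.

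Between sample types, 5 of 42 such targets passed higher in the preparations and 19 lower, with a median of -0.53, beside 32.3% and 32% of all genes (64.3% in either direction). Cxcl10, a chemokine that draws T cells, stood at 2.31 to 4.19 CPM in kidneys and 22.6 to 85.2 CPM in preparations, a 19.5-fold difference (edgeR adjusted p = 2.76e-08). Slfn5 (-2.02), Sp100 (-2.20) and Adar (-1.35), the gene of an RNA-editing enzyme, were among those lower in log2. Of the 9 receptor and kinase genes 4 passed higher and 2 lower, of the 14 sensing genes 5 higher and 3 lower, and of the 8 feedback inhibitors 3 higher and 3 lower, which is near the share over all genes. Socs3, a feedback inhibitor of JAK kinases downstream of interleukin-6 family cytokines, stood at 2.23 to 5.58 CPM in kidneys and 91.5 to 262 CPM in preparations (log2 difference 5.91 ± 0.21, edgeR adjusted p = 3.95e-10). In the genotype comparison of preparations, 4 of the 8 feedback inhibitors were above 0, with a median of -0.0003. Socs3 (0.62 ± 0.27, edgeR adjusted p = 0.609) and Socs1 were under an unadjusted p of 0.05, beside 4.43% of all genes higher in Trp/Trp. In kidney 6 of the 8 were above 0, with a median of 0.08, and 0 were under that p. Socs1, a feedback inhibitor of interferon signalling, stood at 0.581, 0.379 and 0.0978 CPM in Arg/Arg and 1.97, 1.53 and 2.23 CPM in Trp/Trp preparations. These are 4, 3 and 1 counts against 22, 13 and 17, so the gene passed the minimum count of 10 only through the Trp/Trp libraries, and the lack of overlap carries no weight. Its log2 fold change of 2.37 ± 0.66 did not pass (edgeR adjusted p = 0.605).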

How the data were processed

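RNA was measured in 12 libraries of 4 groups, taken from the titles. The submitters' processing notes name STAR, DRAGEN, DESeq2 and mm10, with no versions, roles or order. The authors deposited a table of raw counts per gene for each sample type, with their own log2 fold changes, ratios, p-values, scores (SE and Wald statistic) and a signal column of mean normalised counts. The kidney table holds protein-coding genes only. Counting of strand and of reads shared between genes is not given in the sources used here.

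Whole tables were fitted with edgeR 4.0.16 (R 4.3.3) by the quasi-likelihood test, with TMM scaling, filterByExpr (minimum count 10, minimum total 15) and Benjamini-Hochberg adjustment at 0.05. Sample types and the interaction were fitted over 12 libraries on the 13733 nuclear protein-coding genes shared by the tables, before filtering. The SE is the absolute log2 fold change divided by the square root of F. DESeq2 1.42.0, limma 3.58.1 (voom), other scaling and filters, and leaving out each library were alternatives. The procedure was also run on simulated counts, which held no differences in cell makeup between libraries, and no result here rests on that run. Printed CPM are not TMM-scaled. Exon lengths and coordinates come from an mm10 annotation that held 15356 of 15361 kidney and 18124 of 18145 F4/80+ identifiers. Figures were drawn with matplotlib 3.10.9.

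The members and gene lists were chosen with earlier results of these data known, so no list has a p-value of its own. Values in every library were given for the 8 members of smallest p in each genotype fit, the 4 largest passing changes in each direction between sample types, and the 3 highest members per kilobase. Other members are named by role. Replicate numbers were not treated as pairs, and correlations of same-numbered samples were -0.52 to 0.18. With 3 libraries in each group, these correlations cannot exclude a shared batch.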

Additional observations from a re-analysis of the deposited data

How the results depend on the processing

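No called value reversed. The kidney median over the members, which has no test, went from 0.04 to -0.01 without Arg/Arg replicate 3, less than the replicate SD of 0.102, with 18 of 37 members above 0. Of the named genes' values under the alternatives, 469 kept their direction and side of the threshold, 5 passed only under an alternative (4 of them Ifitm3 between sample types, for example adjusted p = 0.0474 with median-of-ratios scaling and 0.0406 with DESeq2) and 7, all of Ifi27 between sample types, no longer passed. Median-of-ratios scaling, the restriction to nuclear protein-coding genes and leaving off the filter on low counts moved no count of members called by over 1.5 times. Without scaling beyond totals, the median of all genes was -0.13 between sample types and 0.14 in the interaction, and 6 members had an unadjusted p under 0.05 in the interaction. DESeq2 called 15 genes in kidney, 11 in the preparations and 7 in the interaction, none of them members (26 of 33 members had no adjusted p in the preparations), and put 5 members under 0.05 unadjusted in the interaction. voom put 2467 genes under 0.05 unadjusted in the interaction, and 1 member lower. The cause was not tested.

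With the replicate block, 4 kidney members were under 0.05 unadjusted, and 700 genes in the preparations. Same-numbered samples are known to share only a number. It moved no other count of calls by over 1.5 times.

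Leaving out each library, kidney had 0 genes called, 492 to 1254 under 0.05 unadjusted, 1 to 6 members under 0.05, 18 to 29 members above 0 and a median of -0.01 to 0.14. The preparations had 0 called, 364 to 2788 under 0.05, 0 to 9 members under 0.05, 23 to 31 above 0 and a median of 0.34 to 0.57. The interaction had 0 to 580 genes and 0 to 1 members called, 537 to 2850 genes and 0 to 14 members under 0.05, 27 to 31 above 0 and a median of 0.30 to 0.57. Between sample types 8099 to 9265 genes and 23 to 27 members were called (5 to 7 higher, 18 to 21 lower), 8685 to 9645 genes were under 0.05 unadjusted, with 5 to 7 members higher and 19 to 21 lower, 10 to 13 members were above 0 and the median was -0.64 to -0.46. Where a fit leaves 2 libraries in a group, their spread is pooled with the others. With 6.88 to 11.1 M usable counts in the preparations, genes of few counts (Zbp1, Dhx58, Isg20) limit what can be seen.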
